A study of Mus musculus with 4 samples.

Results

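The comparison set 1 library of N2A cells with a knockdown of Ptbp1 directly against 1 library of the same cells with a knockdown of Ptbp2, 2 of the 4 libraries of the series. N2A is a mouse neuroblastoma line. Cells in suspension were mixed with lipid complexes of plasmid for 5 hours and then grown for 3 days before RNA was taken. The Ptbp1 knockdown cells received an shRNA plasmid against Ptbp1, the Ptbp2 knockdown cells an shRNA plasmid against Ptbp2, and the control cells a control shRNA plasmid. A double knockdown library received both shRNAs and is used here only to place single results. All 4 groups were transfected, and the labels name 1 shRNA for each target and do not give the share of cells that took it up, so each level is a mean over transfected and other cells. With 1 library in each group there was no spread between replicates, no test was run, and intervals cover counting error or the Cufflinks model only.

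The polypyrimidine tract-binding (PTB) proteins made from Ptbp1 and Ptbp2 bind pyrimidine-rich RNA near exons and most often keep those exons out of the mature transcript. Ptbp1 is made in dividing and non-neuronal cells and Ptbp2 in neurons, where it takes over as Ptbp1 is lost during neuronal differentiation. Ptbp1 protein promotes the skipping of a Ptbp2 exon whose loss leads to decay of the Ptbp2 transcript, so cells depleted of Ptbp1 make more Ptbp2. In each knockdown here the transcript of the other gene was the more abundant of the pair. Control was placed on a scale from 0 at the Ptbp2 knockdown to 1 at the Ptbp1 knockdown. The scale is in inclusion for exons and in log2 level for genes. Results give this position as a number, as a band defined below or through the control value, and a few named items carry none. From 0 to 0.25 control is called near the Ptbp2 knockdown, from 0.25 to 0.75 in the middle, and from 0.75 to 1 near the Ptbp1 knockdown. Below 0 or above 1 control lay outside the range of both knockdowns, past the nearer of them. Where control lay outside, either knockdown may differ from it. The position takes no account of counting error. For genes it is that of exon reads unless FPKM is named, and the FPKM position can differ.

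Reads on the exon list used for gene levels numbered 209.65 M for Ptbp1 knockdown cells, 244.83 M for Ptbp2 knockdown cells and 260.88 M for control cells, with mitochondrial transcripts at 10.36% to 11.18% of assembled bases in the 4 libraries. Of 13 neuroblastoma markers 11 were measured, and their summed level was 1828 CPM in Ptbp1 knockdown cells, 1916 CPM in Ptbp2 knockdown cells and 1939.7 CPM in control cells. Of them Dbh and Th were higher in the Ptbp1 knockdown by exon reads and Mycn was lower, at 14.6 CPM in Ptbp1 knockdown cells against 29.6 in Ptbp2 knockdown cells and 20.2 in control. None of 7 astrocyte and none of 7 microglia and macrophage markers reached the minimum level of 3 CPM in either knockdown, and the sum over each of these lists stayed at or below 0.980 CPM in the 2 knockdowns and control. Of 8 oligodendrocyte and Schwann markers 2 were measured, among them Pmp22, of 8 fibroblast markers only Pdgfra, and of 6 endothelial markers only Pecam1. The summed fibroblast list stood at 10.3 CPM in Ptbp1 knockdown cells, 3.07 CPM in Ptbp2 knockdown cells and 5.01 CPM in control cells. In bulk RNA, fewer cells with a transcript and less of it per cell cannot be told apart.

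The targeted genes had opposite levels in the 2 knockdowns. Ptbp1 stood at 182 CPM in Ptbp1 knockdown cells, 719.6 CPM in Ptbp2 knockdown cells and 633 CPM in control cells, where CPM is scaled exon reads per M reads. It was 3.94-fold lower in the Ptbp1 knockdown than in the Ptbp2 knockdown, and control, at a position of 0.09, lay near the Ptbp2 knockdown. Ptbp2 stood at 262 CPM in Ptbp1 knockdown cells, 36.4 CPM in Ptbp2 knockdown cells and 136 CPM in control cells, 7.18-fold higher in the Ptbp1 knockdown, with control in the middle at 0.67. The Cufflinks levels of Ptbp1, with their 95% intervals, were 55.4 FPKM (54.2 to 56.7) in Ptbp1 knockdown cells, 177 (172 to 182) in Ptbp2 knockdown cells and 149 (145 to 154) in control cells. Those of Ptbp2 were 76 FPKM (73 to 79.1) in Ptbp1 knockdown cells, 10.8 (10.1 to 11.6) in Ptbp2 knockdown cells and 35.2 (32.9 to 37.5) in control cells. Per length, Ptbp2 was thus the more abundant of the pair in the Ptbp1 knockdown, and Ptbp1 was in Ptbp2 knockdown cells and in control. Ptbp3, another family member, did not reach a 2-fold difference between the knockdowns. It stood at 78.2 CPM in Ptbp1 knockdown cells, 88.8 CPM in Ptbp2 knockdown cells and 149 CPM in control cells, so both single knockdowns were below control.

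Genes were compared with both measures, exon reads and FPKM, and a gene was counted when it differed by at least 2-fold between the knockdowns. By exon reads 520 genes were higher in the Ptbp1 knockdown (5.07% of 10260 measured) and 146 were lower (1.42%). By FPKM 479 were higher (4.90% of 9768) and 170 lower (1.74%). Both measures together, on the same libraries, counted 266 genes as higher (2.93% of 9084) and 44 as lower (0.484%). The balance between higher and lower genes depended on the scaling. With scaling to total exon reads the split by exon reads was 789 higher and 51 lower, and the median log2 difference of all measured genes was 0.11, against -0.08 as reported. With the deposited FPKM on 1 divisor for all libraries the split by FPKM was 307 higher and 283 lower. Control lay in the middle for 197 of the 310 genes counted by both measures (63.5%), near the Ptbp1 knockdown for 46, past it for 22, near the Ptbp2 knockdown for 39 and past it for 6. By FPKM the middle held 213 of the 310. FPKM and exon reads had opposite signs for 55 of the 649 genes that FPKM counted, so the genes led with in the next paragraphs are ones counted by both, and the lists that follow are counted by exon reads.

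Ranked by the smaller of the exon-read and FPKM differences, the higher genes were led by Dbh, dopamine beta-hydroxylase, which makes noradrenaline from dopamine. Dbh stood at 171 CPM in Ptbp1 knockdown cells, 17.1 CPM in Ptbp2 knockdown cells and 46.3 CPM in control cells, 9.99-fold higher in the Ptbp1 knockdown by exon reads and 9.31-fold by FPKM on the log2(FPKM + 1) scale. Tyrosine hydroxylase (Th), which acts earlier in the same pathway, was low in these libraries, at 3.08 CPM in Ptbp1 knockdown cells, 0.145 CPM in Ptbp2 knockdown cells and 0.589 CPM in control cells, and was counted by exon reads only. Genes of G-protein signalling were among them too. The G-protein gamma subunit gene Gng4 had 28.6 CPM with Ptbp1 knocked down, 3.07 with Ptbp2 knocked down and 10.7 in control. The beta subunit gene Gnb3 had 19.5 CPM in Ptbp1 knockdown cells against 2.57 in Ptbp2 knockdown cells and 3.79 in control. Control was in the middle for Gng4 and near the Ptbp2 knockdown for Gnb3. Genes of secreted and surface proteins were also among them. Ltbp3, which binds latent TGF-beta in the matrix, had 72.6 CPM with Ptbp1 knocked down, 10.3 with Ptbp2 knocked down and 32.7 in control. Ace, angiotensin-converting enzyme, had 110.0 CPM in Ptbp1 knockdown cells against 26.4 in Ptbp2 knockdown cells and 61.9 in control. Ache, acetylcholinesterase, had 37.7 CPM with Ptbp1 knocked down, 7.57 with Ptbp2 knocked down and 15.8 in control. In each of these 3 genes control lay in the middle. Sspn, which encodes sarcospan of the dystrophin complex, had 17.2 CPM in Ptbp1 knockdown cells against 2.19 in Ptbp2 knockdown cells and 11.8 in control, which puts control near the Ptbp1 knockdown by exon reads, while by FPKM it was in the middle. Apba1, a neuronal adaptor that binds the amyloid precursor protein, had 35.6 CPM with Ptbp1 knocked down, 6.52 with Ptbp2 knocked down and 16.2 in control. Faim2, a neuronal inhibitor of Fas-induced cell death, had 67.9 CPM in Ptbp1 knockdown cells against 13.9 in Ptbp2 knockdown cells and 35.8 in control. Csdc2, which encodes an RNA-binding cold-shock protein, had 25.6 CPM with Ptbp1 knocked down, 5.12 with Ptbp2 knocked down and 13.1 in control. These 3 genes again had control in the middle. Strip2, Pi16 and Angpt4 were 5.91-fold, 4.16-fold and 5.26-fold higher with control in the middle by exon reads, while by FPKM control was near the Ptbp2 knockdown for Strip2. Lypla1, a thioesterase that removes palmitate from proteins, differed from these. It had 97.5 CPM in Ptbp1 knockdown cells against 27.6 in Ptbp2 knockdown cells and 104 in control, so control was past the Ptbp1 knockdown by exon reads and near it by FPKM.

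The lower genes included several of the actin cytoskeleton. Cnn2, calponin 2, stood at 28.8 CPM in Ptbp1 knockdown cells, 110.3 CPM in Ptbp2 knockdown cells and 68.2 CPM in control cells, 3.82-fold lower in the Ptbp1 knockdown with control in the middle. Myl9, a myosin light chain, had 2.29 CPM with Ptbp1 knocked down, 8.74 with Ptbp2 knocked down and 4.51 in control. Tgfb1i1, a focal adhesion protein, had 21 CPM in Ptbp1 knockdown cells against 58.8 in Ptbp2 knockdown cells and 36.2 in control. The actin-binding Lima1 had 30.6 CPM with Ptbp1 knocked down, 88.8 with Ptbp2 knocked down and 61.1 in control. Control was in the middle for all of these. Flna, filamin A, which crosslinks actin, stood elsewhere. It had 399 CPM in Ptbp1 knockdown cells against 992 in Ptbp2 knockdown cells and 1386 in control, and control was past the Ptbp2 knockdown by both measures. Tpm3, a tropomyosin, had 142 CPM with Ptbp1 knocked down, 404 with Ptbp2 knocked down and 315 in control. By FPKM its control value of 19.4 was below both knockdowns, at 28.3 in the Ptbp1 knockdown and 83.8 in the Ptbp2 knockdown, so the measures differ in where control lies. For 2 lower genes the Ptbp2 knockdown was the one apart from control. Socs2, a suppressor of cytokine signalling, had 40.7 CPM in Ptbp1 knockdown cells against 114 in Ptbp2 knockdown cells and 36.9 in control. Lix1 had 25.7 CPM with Ptbp1 knocked down, 68 with Ptbp2 knocked down and 28.1 in control. Atp6v0e, a subunit of the proton pump of vesicles and lysosomes, had 18.1 CPM in Ptbp1 knockdown cells against 63.5 in Ptbp2 knockdown cells and 50.8 in control. Ndufa12, a subunit of respiratory complex I, had 63.5 CPM with Ptbp1 knocked down, 157 with Ptbp2 knocked down and 138 in control. For both, control was near the Ptbp2 knockdown. Sinhcaf, a subunit of the Sin3 deacetylase complex, and Usp25, a deubiquitinase, were 3.43-fold and 3.02-fold lower with control in the middle by exon reads. Rpl36a, which encodes a ribosomal protein and has near-identical copies elsewhere, was 2.26-fold lower by exon reads and 3.42-fold by FPKM. Its control was near the Ptbp2 knockdown by exon reads and in the middle by FPKM.

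**Figure D1:**
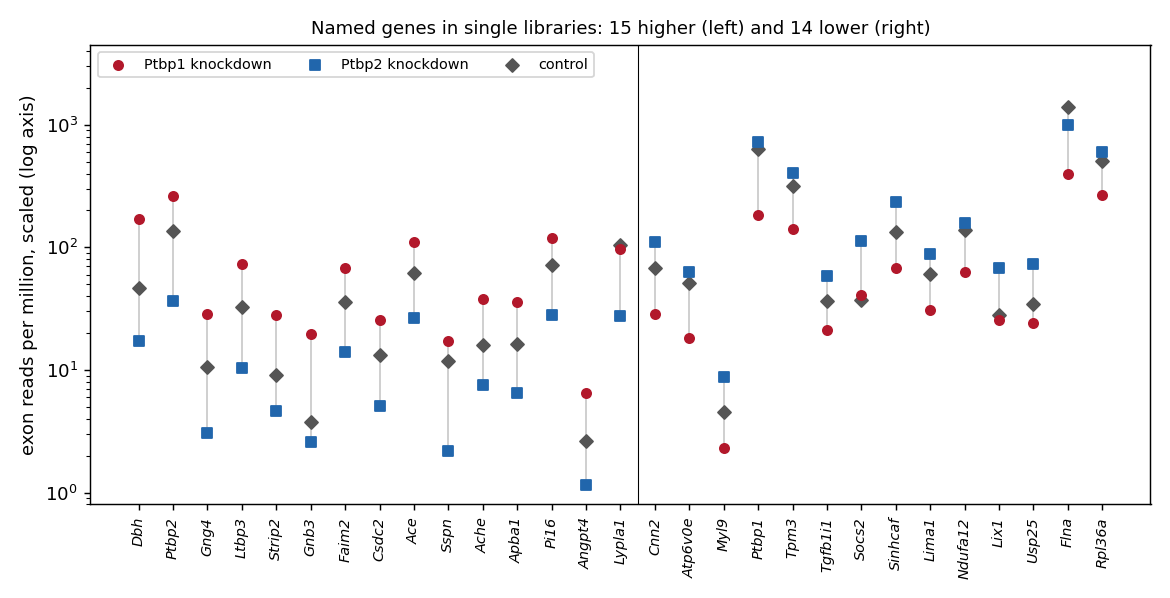
Scaled exon reads per M reads (vertical log axis) of the named genes (horizontal axis) in the Ptbp1 knockdown (circles), the Ptbp2 knockdown (squares) and control (diamonds), 1 library each with no error bars. Control lies between both knockdowns for most of these genes, and beyond the Ptbp2 knockdown for Flna and beyond the Ptbp1 knockdown for Lypla1 and Socs2.

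Among 25 measured genes of the synaptic vesicle and of transmitter release, 10 were higher in the Ptbp1 knockdown and none lower by exon reads, 8 of them by both measures. The share of all measured genes counted as higher by exon reads was 5.07%. The list had a median log2 difference of 0.61 against -0.08 over all measured genes. Vamp2, the vesicle SNARE of the synapse, had 107 CPM in Ptbp1 knockdown cells against 28 in Ptbp2 knockdown cells and 40.6 in control. Control was in the middle at a position of 0.28. The calcium sensor Syt1 had 155 CPM with Ptbp1 knocked down, 75.7 with Ptbp2 knocked down and 141 in control. Cplx2, complexin, had 35.8 CPM in Ptbp1 knockdown cells against 15.1 in Ptbp2 knockdown cells and 35 in control. For Syt1 and Cplx2 control was near the Ptbp1 knockdown. The vesicle proteins Sv2a, Sv2c and Vamp1 and the active zone protein Bsn were higher by 2.57-fold, 2.79-fold, 3.00-fold and 3.14-fold by exon reads.

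Among 19 receptors and postsynaptic scaffolds 7 were higher, 4 of them by both measures, and none lower, with a median of 0.88. Among 17 voltage-gated ion channels 5 were higher, 3 of them by both measures, and none lower, with a median of 0.74, and all 17 had a log2 difference above 0. Of all measured genes 5.07% were higher by exon reads, and 4438 of 10260 had a difference above 0. Of genes measured by both measures 2.93% were higher by both. Gria2, an AMPA receptor subunit, had 28.4 CPM with Ptbp1 knocked down, 5.56 with Ptbp2 knocked down and 11.4 in control. Grin1, the obligate NMDA receptor subunit, had 54.5 CPM in Ptbp1 knockdown cells against 16.2 in Ptbp2 knockdown cells and 33.1 in control. Gabbr1, a subunit of the GABA-B receptor, had 95.1 CPM with Ptbp1 knocked down, 28 with Ptbp2 knocked down and 37.1 in control. The nicotinic receptor gene Chrna7 had 35.3 CPM in Ptbp1 knockdown cells against 12.8 in Ptbp2 knockdown cells and 39.99 in control, so control was past the Ptbp1 knockdown by exon reads. By FPKM Chrna7 was at 33.7 with Ptbp1 knocked down, 8.74 with Ptbp2 knocked down and 24.3 in control, so control was then between both. The sodium channel Scn2a had 28.8 CPM with Ptbp1 knocked down, 10.5 with Ptbp2 knocked down and 18.1 in control. The calcium channel subunit Cacnb1 had 33.7 CPM in Ptbp1 knockdown cells against 11.2 in Ptbp2 knockdown cells and 18 in control. Both had control in the middle. Kif5a, a kinesin of axonal transport, had 250.1 CPM with Ptbp1 knocked down, 77.3 with Ptbp2 knocked down and 102 in control. Dclk1, a doublecortin-like kinase on microtubules, had 96.9 CPM in Ptbp1 knockdown cells against 36.4 in Ptbp2 knockdown cells and 70.5 in control. They were the only higher members of 26 measured microtubule proteins, whose median was 0.19.

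REST represses neuronal genes in other cells. Of 29 measured genes known as its targets, 10 were higher, 8 of them by both measures, and none lower. Of all measured genes 5.07% were higher by exon reads. The REST target list had a median of 0.55. The list shares members with the lists above, among them Gria2, Grin1, Scn2a, Cplx2 and Bsn. Of the 16 genes of the REST complex and its cofactors only the corepressor Rcor1 was counted, as higher and by exon reads only. It had 22 CPM with Ptbp1 knocked down, 9.85 with Ptbp2 knocked down and 20.9 in control. The list had a median of -0.19. Neuronal adhesion and guidance genes had a median of 0.24 with 3 of 24 higher, 1 of them by both measures. Among the 3 was the adhesion molecule L1cam, at 345 CPM in Ptbp1 knockdown cells against 150.0 in Ptbp2 knockdown cells and 273 in control. Neuronal splicing regulators held no counted gene among 16. Mbnl1, a muscleblind protein that also regulates exons, came closest with 122 CPM with Ptbp1 knocked down, 62.1 with Ptbp2 knocked down and 135 in control.

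Of 39 measured genes of the actin cytoskeleton and targets of the transcription factor SRF, 9 were lower in the Ptbp1 knockdown and none higher by exon reads, 6 of them by both measures. Of all measured genes 1.42% were lower. The list had a median log2 difference of -0.61. The median was -0.42 with total scaling, where that of all genes was 0.11, and -0.51 by FPKM. Actg1, cytoplasmic gamma actin, had 1632 CPM in Ptbp1 knockdown cells against 3373 in Ptbp2 knockdown cells and 3723 in control. Iqgap1, a scaffold that binds actin and Cdc42, had 122 CPM with Ptbp1 knocked down, 257 with Ptbp2 knocked down and 343 in control. For both, control was above both knockdowns. Zyx, zyxin of focal adhesions, had 98.8 CPM in Ptbp1 knockdown cells against 207 in Ptbp2 knockdown cells and 135 in control, with control in the middle. Summed over the list, the level was 9839.8 CPM in Ptbp1 knockdown cells, 16341 CPM in Ptbp2 knockdown cells and 17445 CPM in control cells.

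Ribosomal protein genes lay below 0 in all 47 measured members, with a median of -0.57, although of this list, which leaves out Rpl36a given above, only Rps6 was counted as lower, at 511 CPM with Ptbp1 knocked down, 1155 with Ptbp2 knocked down and 960.4 in control. Of these genes 46 were below 0 with total scaling and 40 of 45 by FPKM. Control lay between both knockdowns for 41 of the 47. Many ribosomal protein genes have near-identical copies that can take their reads, so single members are uncertain. The SR and hnRNP splicing factors were below 0 in all 35 members with a median of -0.33 and no counted gene. With total scaling 32 of them were below 0, and by FPKM 30. Genes of the cell cycle and DNA replication had a median of -0.31, with only Cdk4, a cyclin-dependent kinase, counted, and by exon reads only. Cdk4 had 296 CPM in Ptbp1 knockdown cells against 594 in Ptbp2 knockdown cells and 513 in control. Of the 38 cell cycle genes 30 were below 0 as reported and 24 with total scaling. Over all measured genes 5822 of 10260 were below 0 as reported, and 4153 with total scaling.

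Among metabolic genes, 3 higher members had control past the Ptbp1 knockdown. Mpc1, a subunit of the mitochondrial pyruvate carrier, had 120.3 CPM with Ptbp1 knocked down, 45.7 with Ptbp2 knocked down and 140.0 in control, and in FPKM it was listed at 0 in the Ptbp2 knockdown. Pdha1, a subunit of pyruvate dehydrogenase, had 345 CPM in Ptbp1 knockdown cells against 169 in Ptbp2 knockdown cells and 359 in control. Cyp51, an enzyme of cholesterol synthesis, had 231 CPM with Ptbp1 knocked down, 103 with Ptbp2 knocked down and 308 in control, and was counted by exon reads only. Tm7sf2, another enzyme of that pathway, had 18.2 CPM in Ptbp1 knockdown cells against 5.93 in Ptbp2 knockdown cells and 13.4 in control, with control in the middle. The medians of both lists were near that of all genes, at -0.12 for glycolysis and pyruvate handling and 0.11 for cholesterol and fatty acid synthesis. The stress response list had a median of 0.06 and no counted gene in 22. The interferon list had a median of 0.19 with only Mx1 counted, and by exon reads only. Mx1 had 4.27 CPM with Ptbp1 knocked down, 1.90 with Ptbp2 knocked down and 1.78 in control. In the cytokine and growth factor list, 4 of 24 were higher, 3 of them by both measures, and 1, Socs2, was lower, against 5.07% and 1.42% of all measured genes. Among the higher was the neurotrophin receptor gene Ngfr, at 122 CPM in Ptbp1 knockdown cells against 55.6 in Ptbp2 knockdown cells and 177 in control. Of the Id, Hes and proneural transcription factors St18 (by exon reads only) and Ebf4 (with control near the Ptbp2 knockdown) were higher. Id4, an inhibitor of helix-loop-helix factors, was lower, at 13.4 CPM with Ptbp1 knocked down, 31.3 with Ptbp2 knocked down and 11.7 in control. In the extracellular matrix and integrin list, whose median was 0.47, 2 of 18 were higher. They were Ltbp3 and Timp2, an inhibitor of matrix metalloproteases that was counted by exon reads only. Timp2 had 5.87 CPM in Ptbp1 knockdown cells against 0.728 in Ptbp2 knockdown cells and 2.36 in control. The miR-124 target list had a median of -0.25 with 2 of 17 lower, against 1.42% of all measured genes. They were Ptbp1, the knocked-down gene itself, and Iqgap1, the latter by exon reads only. The catecholamine list, with a median of -0.04, had Dbh and Th higher and the transcription factor Gata2 lower, Gata2 by exon reads only. Gata2 had 94.9 CPM with Ptbp1 knocked down, 197 with Ptbp2 knocked down and 112 in control. The BAF chromatin list, with a median of -0.16, had Actl6b, the neuronal actin-like subunit, higher at 24.4 CPM in Ptbp1 knockdown cells against 11.5 in Ptbp2 knockdown cells and 13.9 in control, and Smarca2, an ATPase of the complex, at 96.3 CPM with Ptbp1 knocked down, 45.9 with Ptbp2 knocked down and 79.9 in control. Of Actl6b and Smarca2, only 1 was counted by both measures. By FPKM the medians of the glycolysis, endocytosis, BAF and catecholamine lists were on the other side of 0 or at 0, so no direction is given for these lists as a whole.

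**Figure D2:**
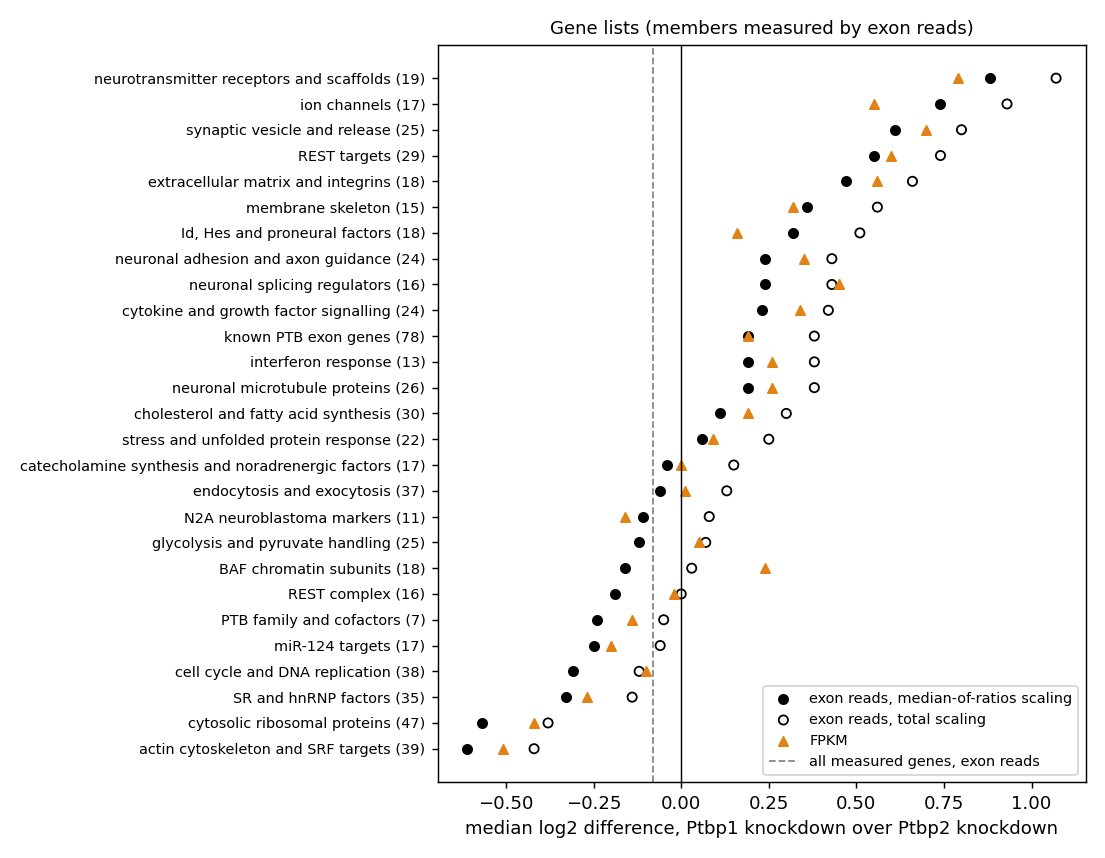
Median log2 difference of the Ptbp1 knockdown over the Ptbp2 knockdown (horizontal axis) for 27 gene lists with at least 5 measured members (rows, with the number measured), by exon reads with median-of-ratios scaling (filled circles), exon reads with total scaling (open circles) and FPKM (triangles). Receptors, ion channels and synaptic vesicle genes stand to the right of the dashed line for all measured genes, and actin and ribosomal protein genes to its left.

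Exon inclusion was computed from junction reads. The mean read number of the 2 junctions that join the exon was divided by the sum of that mean and the reads that skip the exon. An exon was measured with a sum of at least 20 reads in both knockdowns, and counted when its inclusion differed by at least 20 percentage points. Of 100936 measured exons 372 were higher in the Ptbp1 knockdown (0.369%) and 106 were lower (0.105%). The 95% Wilson intervals of both knockdowns did not overlap for 328 of the higher and 74 of the lower exons. SpliceTrap's own inclusion ratio, which is fitted from the same reads, differed by 20 points the same way in 408 of the 478 and had the opposite sign in 1. The counted exons lie in 414 genes, and 31 of them overlap another counted exon and so share reads with it. The threshold falls in a continuous range: 74 exons differed by 20 to 22 points and 101 by 18 to 20 points.

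Control was measured for 473 of these exons. Among 367 higher exons control lay in the middle for 131, near the Ptbp2 knockdown for 106 and past it for 65, against 43 near the Ptbp1 knockdown and 22 past it. Among 106 lower exons 45 had control in the middle, 20 near the Ptbp2 knockdown and 22 past it, and 11 near the Ptbp1 knockdown and 8 past it. The middle therefore held 37.2% of the counted exons and 63.5% of the counted genes. These shares rest on unlike scales, inclusion for exons and log2 level for genes, and on unlike thresholds, so they are not directly comparable. No test was made of this difference between exons and genes. The bands are set by the control value itself, so the place of control within each band follows from the definition. The medians below describe levels only. Median inclusion of the higher exons with control near the Ptbp2 knockdown was 51.0% with Ptbp1 knocked down, 9.20% with Ptbp2 knocked down and 13.7% in control. For those with control in the middle it was 81.0% with Ptbp1 knocked down, 40.2% with Ptbp2 knocked down and 60.9% in control. For those with control near the Ptbp1 knockdown it was 80.7% with Ptbp1 knocked down, 36.4% with Ptbp2 knocked down and 75.4% in control.

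**Figure D3:**
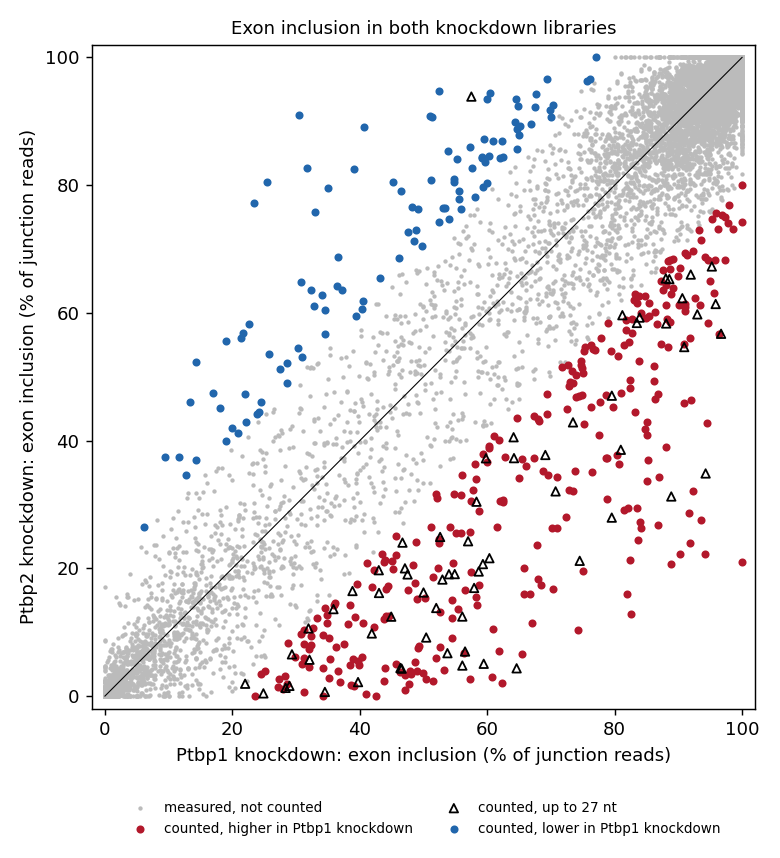
Inclusion of each measured exon in the Ptbp1 knockdown (horizontal axis, % of junction reads) and in the Ptbp2 knockdown (vertical axis), with uncounted exons in grey, the 372 higher exons in red below the diagonal, the 106 lower exons in blue above it, and triangles for counted exons of up to 27 nt. All but 1 of the triangles lie below the diagonal.

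The exons with the largest differences included several for which control stood well between the knockdowns. The 78-nt exon of Kansl3 (chr1:36404062-36404139, minus strand, mm9), whose protein belongs to the NSL histone acetyltransferase complex, was included at 82.6% (79.2 to 85.5) in Ptbp1 knockdown cells, 12.9% (10.8 to 15.2) in Ptbp2 knockdown cells and 41.1% (37.4 to 45.2) in control cells. The knockdowns differed by 69.7 points and no interval overlapped another. The 30-nt coding exon of Mdm1 (chr10:117593890-117593919, plus strand), a microtubule-binding protein of centrioles, was included at 88.9% (86.9 to 90.7) in Ptbp1 knockdown cells, 20.6% (18.6 to 22.8) in Ptbp2 knockdown cells and 64% (61.4 to 66.5) in control cells. The coding exon of Scamp5 (chr9:57294884-57295040, minus strand), a secretory carrier membrane protein of vesicles, was at 90.3% (87.7 to 92.4) in Ptbp1 knockdown cells, 22.3% (18.1 to 26.8) in Ptbp2 knockdown cells and 57.8% (53.1 to 62.4) in control cells. Its length of 157 nt is no multiple of 3. The 151-nt coding exon of the GABA-B receptor subunit Gabbr1 (chr17:37204159-37204309, plus strand) was at 93.6% (90.6 to 95.7) in Ptbp1 knockdown cells, 27.5% (18.4 to 39) in Ptbp2 knockdown cells and 62.8% (54.1 to 70.9) in control cells. This gene was also 3.39-fold higher in level. For these 4 exons control stood apart from both knockdowns beyond the counting intervals.

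Of the other named exons with control in the middle, 6 are given by their values. The 81-nt coding exon of Golga2 (GM130, a Golgi matrix protein) was at 82% in Ptbp1 knockdown cells against 15.9% in Ptbp2 knockdown cells and 53.4% in control. The 29-nt exon of Strada, the pseudokinase that activates the kinase STK11, was at 82.4% with Ptbp1 knocked down, 21.4% with Ptbp2 knocked down and 57.7% in control. The 63-nt exon of Plod2, a lysyl hydroxylase of collagen, was at 83.7% in Ptbp1 knockdown cells against 24.4% in Ptbp2 knockdown cells and 60.9% in control. Its inclusion gives the long form of the enzyme. The 18-nt exon of Inpp4a, an inositol phosphatase, was at 64.6% with Ptbp1 knocked down, 4.35% with Ptbp2 knocked down and 37.5% in control. A 15-nt form with the same end was also counted, overlaps this exon and shares reads with it. The 18-nt exon of Tbc1d24, a protein of synaptic vesicle traffic, was at 88.9% in Ptbp1 knockdown cells against 31.2% in Ptbp2 knockdown cells and 74.1% in control. The 33-nt exon of the ubiquitin ligase Ubr4 was at 84% with Ptbp1 knocked down, 27.3% with Ptbp2 knocked down and 61.7% in control.

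Another set of higher exons was nearly skipped in both the Ptbp2 knockdown and control. The 107-nt exon of Cers5 (chr15:99567978-99568084, minus strand), a ceramide synthase, was included at 62.3% (59.9 to 64.6) in Ptbp1 knockdown cells, 2.00% (1.40 to 2.76) in Ptbp2 knockdown cells and 3.74% (3.06 to 4.55) in control cells, on 1627.5 and 1628.5 junction reads in the Ptbp1 and Ptbp2 knockdowns. The 42-nt exon of Dpf2 (chr19:5903731-5903772, minus strand), a subunit of BAF chromatin complexes, was at 65.5% (61.5 to 69.3) in Ptbp1 knockdown cells, 6.61% (5.17 to 8.41) in Ptbp2 knockdown cells and 10.1% (8.19 to 12.4) in control cells. The 150-nt exon of Plekha6 (chr1:135182824-135182973, plus strand) was at 74.3% (69.2 to 78.8) in Ptbp1 knockdown cells, 10.3% (7.26 to 14.9) in Ptbp2 knockdown cells and 15.8% (12.5 to 19.7) in control cells. The 81-nt exon of Itsn2, an endocytic scaffold, was at 34.3% in Ptbp1 knockdown cells against 0% in Ptbp2 knockdown cells and 0% in control, where the 0 is a share of 250 junction reads in the Ptbp2 knockdown, with an upper 95% limit of 1.51%. Rims2, a scaffold of the presynaptic active zone, had a 66-nt exon at 28.3% with Ptbp1 knocked down, 3.15% with Ptbp2 knocked down and 3.40% in control.

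A smaller set of higher exons was included in control as in the Ptbp1 knockdown and, of the single knockdowns, was low only in that of Ptbp2. The 63-nt coding exon of Epb41l2 (chr10:25213373-25213435, plus strand), a protein 4.1 of the membrane skeleton, was at 94.2% (90.4 to 96.6) in Ptbp1 knockdown cells, 22.3% (17.5 to 28) in Ptbp2 knockdown cells and 89.6% (85.7 to 92.5) in control cells. This position is that of the exon and not of the gene, as a counted 168-nt exon of Epb41l2 had control near the Ptbp2 knockdown. The 130-nt exon of Itga6 (chr2:71691591-71691720, plus strand), the integrin alpha 6 subunit that binds laminin, was at 91.7% (88.4 to 93.7) in Ptbp1 knockdown cells, 28.7% (25.3 to 32.5) in Ptbp2 knockdown cells and 86.2% (83.6 to 88.4) in control cells. The 84-nt exon of Lef1 (chr3:130893941-130894024, plus strand), a transcription factor of Wnt signalling, was at 84.1% (64.7 to 91.1) in Ptbp1 knockdown cells, 26.3% (15 to 42) in Ptbp2 knockdown cells and 82% (68 to 90.5) in control cells, on only 31.5 and 38 junction reads in the Ptbp1 and Ptbp2 knockdowns. A 105-nt exon of Arpp21, a cAMP-regulated neuronal phosphoprotein, had the widest gap of all named exons, 100% (83.9 to 100) in Ptbp1 knockdown cells against 20.9% (7.31 to 38.5) in Ptbp2 knockdown cells, but rests on 20.5 and 21.5 reads, and control had fewer than 20.

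The named lower exons, less included in the Ptbp1 knockdown, had control near or past the Ptbp2 knockdown in 10 of 15 cases. The 99-nt coding exon of Flnc (chr6:29402799-29402897, plus strand), filamin C, was at 30.4% (22.2 to 38.8) in Ptbp1 knockdown cells, 91% (81.8 to 95.8) in Ptbp2 knockdown cells and 86.6% (78.4 to 92) in control cells, so control was near the Ptbp2 knockdown. The 165-nt exon of Cep152 (chr2:125397405-125397569, minus strand), a centrosomal protein, was at 40.7% (33 to 48.8) in Ptbp1 knockdown cells, 89.1% (83.2 to 93.1) in Ptbp2 knockdown cells and 79.9% (73.4 to 85.3) in control cells. The 84-nt exon of Akap11, which anchors protein kinase A, was at 23.3% in Ptbp1 knockdown cells against 77.1% in Ptbp2 knockdown cells and 61.4% in control, in the middle. So was the 118-nt exon of the adhesion molecule Mcam, at 60.4% with Ptbp1 knocked down, 94.4% with Ptbp2 knocked down and 83.7% in control. For 6 of the 15 control was past the Ptbp2 knockdown, but in each of these the intervals of control and the Ptbp2 knockdown overlapped. The 81-nt exon of Myo5a, a myosin motor of vesicles, was at 30.8% in Ptbp1 knockdown cells against 64.8% in Ptbp2 knockdown cells and 68.9% in control. The 63-nt exon of Dmxl2, which takes part in the acidification of vesicles, was at 52.4% with Ptbp1 knocked down, 94.7% with Ptbp2 knocked down and 97.3% in control. The 93-nt exon of Arhgap39, a GTPase-activating protein, was at 33% in Ptbp1 knockdown cells against 75.8% in Ptbp2 knockdown cells and 80.1% in control. The 81-nt exon of the noncoding RNA Meg3 was at 14.3% with Ptbp1 knocked down, 52.4% with Ptbp2 knocked down and 55% in control. Fat1, Ehhadh, Ccdc163, Stoml1, Atp2b4, Trerf1 and Igsf9 completed the set, with gaps of 33.5 to 55.1 points. Control was in the middle for Fat1, Stoml1 and Trerf1, near the Ptbp2 knockdown for Ccdc163 and Igsf9, and past it for Ehhadh and Atp2b4. Fat1, Ehhadh and Atp2b4 rest on 20.5 to 21.5 reads in the Ptbp2 knockdown.

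**Figure D4:**
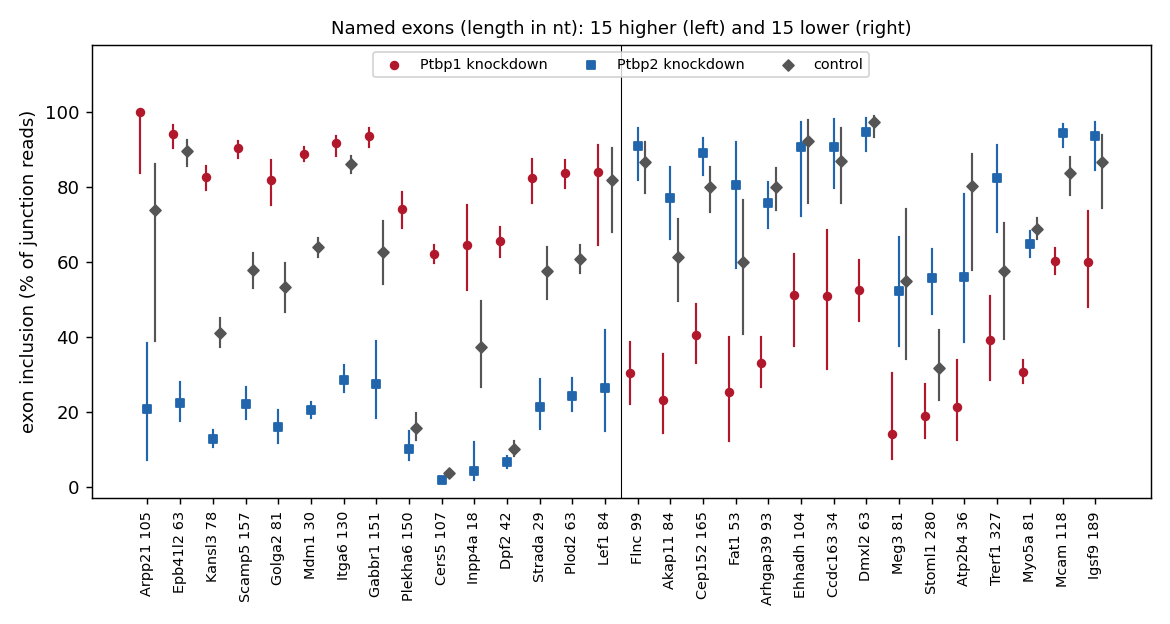
Inclusion (vertical axis, % of junction reads, with 95% Wilson intervals that cover counting error only) of the 30 named exons (horizontal axis, gene and length in nt) in the Ptbp1 knockdown (circles), the Ptbp2 knockdown (squares) and control (diamonds). Control sits with the Ptbp2 knockdown for Plekha6, Cers5 and Dpf2, with the Ptbp1 knockdown for Epb41l2, Itga6 and Lef1, and between both for Kansl3, Scamp5, Golga2 and Mdm1.

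Of the exons of the PTB family itself, 34-nt exons of Ptbp2 and Ptbp3 were counted. The 34-nt exon of Ptbp2, which must be included for a full-length protein, was included at 94.5% (92.3 to 96.1) in Ptbp1 knockdown cells, 42.7% (32.9 to 53.1) in Ptbp2 knockdown cells and 72.2% (67 to 76.9) in control cells, on 564 and 89 junction reads in the Ptbp1 and Ptbp2 knockdowns. The 34-nt exon of Ptbp3 was at 57.5% (44.1 to 67.7) in Ptbp1 knockdown cells, 30.6% (20.5 to 40.9) in Ptbp2 knockdown cells and 28% (21 to 37.5) in control cells, with control past the Ptbp2 knockdown. In Ptbp1, the 78-nt exon that separates its longer and shorter proteins was at 54% in Ptbp1 knockdown cells against 56.6% in Ptbp2 knockdown cells and 54.8% in control, with overlapping intervals. The 196-nt exon of Ptbp1 was at 98% with Ptbp1 knocked down, 87.4% with Ptbp2 knocked down and 95.8% in control, a gap of 10.5 points that was not counted. Both 34-nt exons are shown because each shifts the reading frame when skipped. They are printed 5′ to 3′ with the alternative exon in capitals and the last or first 12 bases of the neighbouring exons in lower case, as in GENCODE vM21 transcripts whose exon structure matched that of the files.
Ptbp2 34-nt exon: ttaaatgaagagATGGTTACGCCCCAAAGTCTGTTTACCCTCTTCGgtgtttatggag
Ptbp3 34-nt exon: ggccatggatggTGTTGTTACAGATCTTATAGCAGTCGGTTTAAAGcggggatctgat

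On mm9, the build of the files, these exons lie at chr3:119427530-119427563 (minus) and chr4:59559021-59559054 (minus). Compared position by position, they have 5 of 34 bases in common. They were not matched as counterparts, and equal length alone does not make them the same exon of the family.

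Microexons, exons of up to 27 nt that are spliced in mostly in neurons, made up 64 of the 372 higher exons (17.2%) and 1 of the 106 lower ones. Of all measured exons 0.56% were this short, and of the alternative ones that were not counted 2.65%. The 65 microexons lie in 62 genes. Of the 64 higher ones control was past the Ptbp2 knockdown for 21, near it for 22, in the middle for 15, near the Ptbp1 knockdown for 4 and past it for 2. The 2 junctions of a short exon did not hold equal reads. For exons up to 27 nt the first junction in genome order had a median of 6.92-fold the reads of the second in the Ptbp1 knockdown and 6.40-fold in the Ptbp2 knockdown, while for exons of 100 nt or more the ratio was 1 in both. The mean used here is therefore below the value of the first junction alone for short exons, in both knockdowns. What made the junctions unequal was not tested. With reads normalised to the number of positions from which they can cross the junctions, 58 of the 65 microexons and 459 of all 478 exons were still counted in the same direction.

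The sequences of 9 short exons are printed here because they differ by as few as 9 bases from the form that skips them, and because they cover several positions of control. Exoc1, Fnbp1 and Pdlim5 had control at or near the Ptbp2 knockdown, Inpp4a, Incenp and Tbc1d24 in the middle, Dst and Map4k4 near the Ptbp1 knockdown, and Mroh1 is the lower one. The alternative exon is in capitals.
Exoc1 21-nt exon: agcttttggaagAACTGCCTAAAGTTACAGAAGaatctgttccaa
Fnbp1 15-nt exon: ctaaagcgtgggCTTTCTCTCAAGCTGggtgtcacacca
Pdlim5 18-nt exon: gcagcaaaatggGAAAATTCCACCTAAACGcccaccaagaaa
Inpp4a 18-nt exon: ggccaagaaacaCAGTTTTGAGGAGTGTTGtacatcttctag
Incenp 12-nt exon: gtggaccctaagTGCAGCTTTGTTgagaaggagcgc
Tbc1d24 18-nt exon: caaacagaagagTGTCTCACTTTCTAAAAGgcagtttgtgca
Dst 18-nt exon: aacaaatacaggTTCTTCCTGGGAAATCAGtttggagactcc
Map4k4 9-nt exon: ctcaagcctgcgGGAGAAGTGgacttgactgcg
Mroh1 27-nt exon: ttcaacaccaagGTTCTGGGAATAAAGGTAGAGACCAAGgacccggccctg

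All 9 are multiples of 3 nt and coding in the matched transcripts. On mm9 they lie at chr5:76969772-76969792 (plus) for Exoc1, chr2:30900402-30900416 (minus) for Fnbp1, chr3:141967669-141967686 (minus) for Pdlim5, chr1:37431117-37431134 (plus) for Inpp4a, chr19:9957682-9957693 (minus) for Incenp, chr17:24321326-24321343 (minus) for Tbc1d24, chr1:34353587-34353604 (plus) for Dst, chr1:40065176-40065184 (plus) for Map4k4 and chr15:76262802-76262828 (plus) for Mroh1.

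The microexon of Exoc1, a subunit of the exocyst that tethers secretory vesicles, was included at 59.5% (50.8 to 66.6) in Ptbp1 knockdown cells, 5.06% (2.68 to 9.33) in Ptbp2 knockdown cells and 5.03% (3.04 to 8.97) in control cells. That of Fnbp1, a protein that bends membranes in endocytosis, was at 56.1% (49.2 to 62.1) in Ptbp1 knockdown cells, 4.78% (2.87 to 7.86) in Ptbp2 knockdown cells and 8.57% (5.61 to 12.4) in control cells. In both, inclusion was low in the Ptbp2 knockdown and in control. The microexon of Pdlim5, a protein of actin-linked Z-discs, was at 24.9% in Ptbp1 knockdown cells against 0.422% in Ptbp2 knockdown cells and 0.790% in control. That of Incenp, a centromere protein of the chromosomal passenger complex, was at 50.4% (45.9 to 54.9) in Ptbp1 knockdown cells, 9.17% (7.16 to 11.9) in Ptbp2 knockdown cells and 30.8% (27.2 to 34.7) in control cells, in the middle, and in the double knockdown it was at 18.6%. The microexon of Dst, the spectraplakin that links cytoskeletal filaments, was at 94.3% (91.1 to 96.3) in Ptbp1 knockdown cells, 34.9% (30.9 to 39.2) in Ptbp2 knockdown cells and 93.7% (89.9 to 95.6) in control cells. Of the single knockdowns only that of Ptbp2 was low, and the double knockdown was at 67.5%. A 72-nt exon of Dst instead had control near the Ptbp2 knockdown. The microexon of Map4k4, a kinase, was at 95.3% with Ptbp1 knocked down, 67.3% with Ptbp2 knocked down and 90.6% in control. Mroh1 had the only microexon that was lower, at 57.5% in Ptbp1 knockdown cells against 93.9% in Ptbp2 knockdown cells and 94.5% in control. By the length-normalised measure Exoc1 was at 70.8% in the Ptbp1 knockdown and 8.08% in the Ptbp2 knockdown. On that measure Incenp was at 64.5% in the Ptbp1 knockdown and 15.3% in the Ptbp2 knockdown, Dst at 96.5% in the Ptbp1 knockdown and 47.5% in the Ptbp2 knockdown, and Mroh1 at 68% in the Ptbp1 knockdown and 96% in the Ptbp2 knockdown, and each direction was the one given above.

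Some of the other microexons are given here by the role of their gene. In vesicle traffic, the exon of the SNARE Vti1a was at 60.3% with Ptbp1 knocked down and 21.6% with Ptbp2 knocked down, and control was past the Ptbp2 knockdown. That of Synj1, the synaptojanin that uncoats endocytic vesicles, was at 73.5% with Ptbp1 knocked down, 42.9% with Ptbp2 knocked down and 44.7% in control, and that of Dnm1, dynamin 1, was at 95.9% in Ptbp1 knockdown cells against 61.4% in Ptbp2 knockdown cells and 79.5% in control. On microtubules, the exon of Dctn1, the largest subunit of dynactin, was at 58.7% with Ptbp1 knocked down, 19.5% with Ptbp2 knocked down and 25.6% in control. That of Clasp1 was at 43% in Ptbp1 knockdown cells against 19.7% in Ptbp2 knockdown cells and 14.9% in control, and that of Nav1 was at 96.7% with Ptbp1 knocked down, 56.7% with Ptbp2 knocked down and 69.7% in control. For each of these 6 control was lower than the Ptbp1 knockdown. At cell contacts, L1cam had a 12-nt exon at 54% in Ptbp1 knockdown cells against 19.1% in Ptbp2 knockdown cells and 19.1% in control, and a 15-nt exon at 81% with Ptbp1 knocked down, 38.6% with Ptbp2 knocked down and 51% in control. Tenm3, a teneurin, had a 21-nt exon at 38.9% in Ptbp1 knockdown cells against 16.5% in Ptbp2 knockdown cells and 13.7% in control, and a 27-nt exon at 53.8% with Ptbp1 knocked down, 6.72% with Ptbp2 knocked down and 13.8% in control. Among kinases and other signalling proteins, Ptk2 (focal adhesion kinase) was at 79.5% in Ptbp1 knockdown cells against 27.9% in Ptbp2 knockdown cells and 34.6% in control. Tnik was at 70.7% with Ptbp1 knocked down, 32.1% with Ptbp2 knocked down and 37.1% in control, and the exchange factor Vav2 was at 64.2% in Ptbp1 knockdown cells against 37.3% in Ptbp2 knockdown cells and 29.2% in control. For Vav2 control was past the Ptbp2 knockdown and for Ptk2 and Tnik near it. Bak1, a protein that permeabilises mitochondria in cell death, had a 20-nt exon at 57.9% with Ptbp1 knocked down, 16.9% with Ptbp2 knocked down and 12.7% in control, which shifts the frame. Picalm, a clathrin assembly protein, had its 24-nt exon at 32% in Ptbp1 knockdown cells against 10.6% in Ptbp2 knockdown cells and 31.2% in control, and the double knockdown was at 7.20%.

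Of 76 genes listed for PTB-responsive exons that had a measured exon, 37 (48.7%) had a counted exon, against 4.16% of all 9958 genes with a measured exon. The genes were listed because their exons were known to respond, partly in cells like these, so the share describes the list and is no independent evidence. They held 41 higher and 9 lower exons. Of 15 measured genes of the membrane skeleton 7 had a counted exon, and all of them are in the list of known genes. Besides Epb41l2, they include Epb41l3, another protein 4.1, with a 123-nt exon at 68% with Ptbp1 knocked down, 18.4% with Ptbp2 knocked down and 30.7% in control. Epb41l1 had a 36-nt exon at 82.4% in Ptbp1 knockdown cells against 49.4% in Ptbp2 knockdown cells and 46.3% in control. Sptan1, alpha spectrin, had a 60-nt exon at 89.9% with Ptbp1 knocked down, 65.7% with Ptbp2 knocked down and 74.7% in control. Of 37 genes of endocytosis and exocytosis 12 had a counted exon. At least Clta, Ap2a1, Exoc7 and Dnm1 of these are also in the list of known genes. Clta, clathrin light chain, had a 54-nt exon at 30.9% in Ptbp1 knockdown cells against 4.96% in Ptbp2 knockdown cells and 4.77% in control, and a 36-nt exon at 67% with Ptbp1 knocked down, 11.4% with Ptbp2 knocked down and 27.7% in control. The AP2 subunit Ap2a1 had a 66-nt exon at 39.1% in Ptbp1 knockdown cells against 1.52% in Ptbp2 knockdown cells and 1.08% in control. The exocyst subunit Exoc7 had a 93-nt exon at 83.5% with Ptbp1 knocked down, 29.4% with Ptbp2 knocked down and 55.1% in control, and a 39-nt exon at 85.2% in Ptbp1 knockdown cells against 36.9% in Ptbp2 knockdown cells and 57.1% in control. The 2 exons of Clta therefore differed in where control stood, past the Ptbp2 knockdown for the 54-nt exon and in the middle for the 36-nt exon. Dlg4 (PSD-95), the postsynaptic scaffold, had a 110-nt exon at 70.9% (66.3 to 75.1) in Ptbp1 knockdown cells, 26.3% (22 to 31) in Ptbp2 knockdown cells and 47.3% (42.2 to 52.4) in control cells. Mapt, the microtubule protein tau, had an 87-nt exon at 49.2% with Ptbp1 knocked down, 7.87% with Ptbp2 knocked down and 28.1% in control, and a 93-nt exon at 80.4% in Ptbp1 knockdown cells against 37.7% in Ptbp2 knockdown cells and 67.7% in control. In the double knockdown these were at 18.2% and 34.1%. Counted exons were also found in the muscleblind genes, whose proteins regulate splicing themselves. The 54-nt exon of Mbnl1 was at 60.3% with Ptbp1 knocked down, 84.6% with Ptbp2 knocked down and 67.6% in control, and the 54-nt exon of Mbnl2 at 53.4% in Ptbp1 knockdown cells against 76.5% in Ptbp2 knockdown cells and 48.1% in control. In Mbnl2 a 36-nt exon was at 49.1% with Ptbp1 knocked down, 7.53% with Ptbp2 knocked down and 5.82% in control, and a 95-nt exon at 53.9% in Ptbp1 knockdown cells against 85.3% in Ptbp2 knockdown cells and 70.1% in control. Numb, a cell fate determinant that binds endocytic adaptors, had its 147-nt exon at 13.4% with Ptbp1 knocked down, 46.1% with Ptbp2 knocked down and 20.2% in control, near the Ptbp1 knockdown.

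Among coding exons, a multiple of 3 nt was the length of 82.5% of 275 higher and 69.6% of 56 lower exons, against 46.3% of the alternative exons that were not counted and 39.5% of all measured coding exons. Among the higher exons the share was 93.6% of 78 with control near the Ptbp2 knockdown, 87.5% of 48 with control past it, 77.5% of 102 in the middle, 73.3% of 30 near the Ptbp1 knockdown and 64.3% of 14 past it. Exons of 1 gene share their source, and these shares carry no test. Median length was 75 nt for the higher exons and 94.5 nt for the lower ones, against 122 nt for all measured exons. Of these exons 19 of the 478, in 14 of the 414 genes, were in genes counted by both gene measures. Over all genes measured by both, 2.93% were higher and 0.484% lower, a share close to that of these 414. Genes of higher exons that shift the frame had a median log2 difference in level of 0.15 over 45 genes, and those of higher exons that keep it 0.09 over 199 genes. For lower exons the medians were 0.01 over 17 genes where the frame shifts and 0.19 over 38 where it is kept, against -0.08 for all measured genes.

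In 11 genes exons were counted in both directions. Ank3, ankyrin G, had its 27-nt exon at 46.6% in Ptbp1 knockdown cells against 4.29% in Ptbp2 knockdown cells and 5.02% in control, and its 63-nt exon at 16.9% with Ptbp1 knocked down, 47.5% with Ptbp2 knocked down and 51.3% in control. Dpf2 had, besides the 42-nt exon above, a 73-nt exon at 69.4% in Ptbp1 knockdown cells against 96.7% in Ptbp2 knockdown cells and 94.6% in control. Control was near or past the Ptbp2 knockdown for all 4 of these exons, so it was the Ptbp1 knockdown that stood apart from control in both directions. Sgip1, an endocytic protein, had a 498-nt exon at 86.8% with Ptbp1 knocked down, 47.3% with Ptbp2 knocked down and 88.8% in control, and a 60-nt exon at 59.1% in Ptbp1 knockdown cells against 84.4% in Ptbp2 knockdown cells and 66.7% in control. Mycbp2, a ubiquitin ligase of axons, had a 75-nt exon at 25.1% with Ptbp1 knocked down, 3.87% with Ptbp2 knocked down and 5.49% in control, and a 108-nt exon at 32.3% in Ptbp1 knockdown cells against 63.6% in Ptbp2 knockdown cells and 59.4% in control. Other genes of this kind included Atp2b4, Golgb1, Grip1, Mbnl2, Nfat5 and Tenm3. Among these genes, the intervals of both knockdowns overlapped for the 95-nt exon of Golgb1 and the 160-nt exon of Grip1. They also overlapped for the 62-nt exon of Nfat5 and the 279-nt exon of Tenm3. Golgb1 and Atp2b4 each have counted exons that overlap another of the same gene and share reads with it. The SpliceTrap ratio of that Grip1 exon was 19.4% in the Ptbp1 knockdown and 20.8% in the Ptbp2 knockdown. That Tenm3 exon rests on 20.5 reads in the Ptbp1 knockdown and 27.5 in the Ptbp2 knockdown.

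The double knockdown was placed on the same scale. Of 474 counted exons with enough reads in it, 216 (45.6%) lay past the Ptbp1 knockdown and 95 near it, 110 in the middle, 31 near the Ptbp2 knockdown and 22 past it. Of the 310 genes counted by both measures 218 (70.3%) lay in the middle and 15 past the Ptbp1 knockdown. Among the examples, the Tnrc6a exon of 147 nt, in a gene of microRNA silencing, was at 82.1% in Ptbp1 knockdown cells, 29.5% in Ptbp2 knockdown cells and 27.2% in control cells, and at 89.6% in the double knockdown. The 81-nt exon of Itsn2 was at 63.4% there and the 42-nt exon of Dpf2 at 77.7%, both above the Ptbp1 knockdown. For genes, Dbh had 48.3 CPM in the double knockdown and 46.3 in control. Ptbp2 had 57 CPM in the double knockdown and 136 in control. Vamp2, with 115 CPM, and Kif5a, with 208 CPM, were nearer to the Ptbp1 knockdown.

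**Figure D5:**
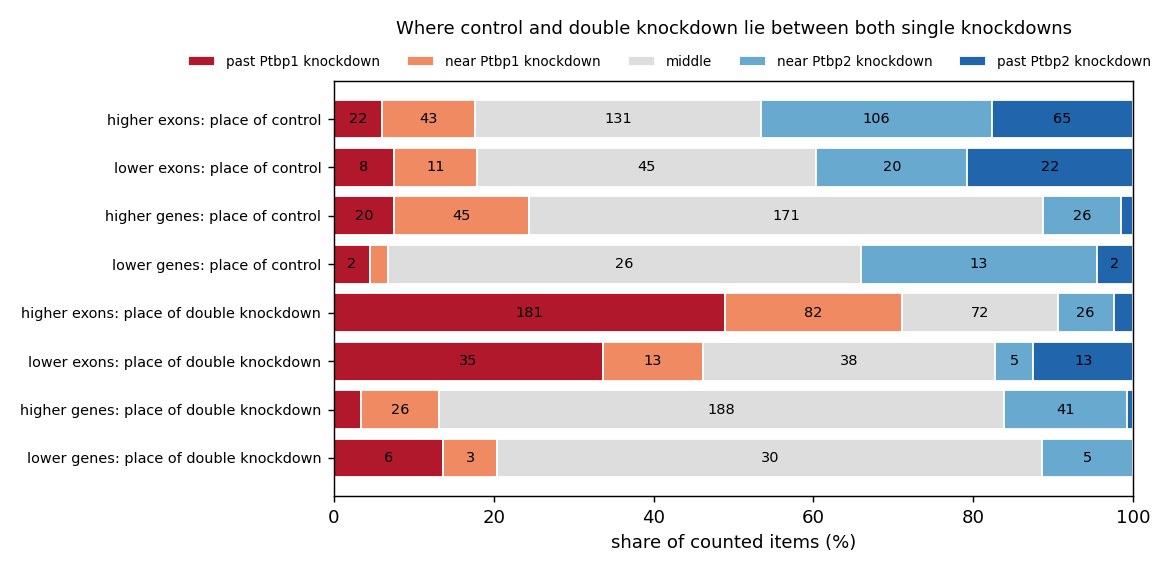
Share of counted exons and genes (horizontal axis, %, with numbers in the bars) by the position of control (upper 4 bars) or the double knockdown (lower 4 bars) on the scale from the Ptbp1 knockdown to the Ptbp2 knockdown. Control lies on the Ptbp2 knockdown side or in the middle for most exons and in the middle for most genes, and the double knockdown lies past the Ptbp1 knockdown for 181 of 370 higher exons. Items were picked for a large gap between both knockdowns, which by itself favours a position between them.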

How the data were processed

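Poly(A) RNA of 4 N2A libraries, 1 per group, had been sequenced as paired reads of 100 bases from strand-marked libraries, per the labels. Per the submitters' processing notes CASAVA, TopHat and Cufflinks were used with build mm9, with no version given in the sources used here. From Cufflinks, the authors deposited FPKM for genes and transcripts with intervals, beside a coverage signal and a score not used as levels. The deposited FPKM are not on the usual scale per M fragments, so each library was divided by its sum of FPKM times length. The second deposited tables, from SpliceTrap, give per event an inclusion ratio, a fraction, with counts of junction reads and a coverage signal, per the file headers, which holds 100 times the reads divided by exon size. Whole reads were recovered from 100% of coverage values within 0.05.

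Exon reads were summed per gene over distinct exons, scaled by median of ratios over the 4 libraries and compared as log2(CPM + 0.1), with at least 3 CPM in 1 of both knockdowns. Reads on overlapping exons count more than once. FPKM were compared as log2(FPKM + 1) with at least 3 in 1 of both, status OK and intervals that do not overlap. Exon trios and transcripts were named by intron and exon lengths in GENCODE vM21 and by RefSeq accessions. Together these named 98.5% of 218362 cassette events. Coordinates are 1-based on mm9, and exon letters come from GENCODE vM21 transcripts. Strand-specific counting is not stated, so reads of overlapping antisense genes may be shared. Named genes were the 15 higher and 15 lower genes counted by both measures with the largest smaller difference, without predicted genes, and counted or leading list members. Named exons were chosen likewise with the SpliceTrap ratio as the second measure, with the 10 largest in the middle, PTB family exons, exons of known PTB exon genes and microexons. Some items that these rules name are not reported here. Other list and both-way exons were named after their values were seen. Members and lists were chosen with earlier results of these data known. Intervals of inclusion are 95% Wilson intervals of rounded reads. Python 3.11.15, pandas 2.3.3, numpy 2.4.6, scipy 1.17.1 and matplotlib 3.10.9 were used.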

Additional observations from a re-analysis of the deposited data

How the results depend on the processing

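Of 59 alternatives computed for these counts, shares and lists, 36 stayed within 1.5 times or the range set for a share, and 23 did not. The cause was not tested for any of them beyond what the alternative itself changes. With total scaling, genes by exon reads were 789 higher and 51 lower (520 and 146 as reported), and lower genes by both measures 26 (44 as reported). With no minimum CPM 1076 were higher, and with a minimum of 10 CPM 314. With a pseudocount of 5 FPKM, FPKM gave 165 higher and 99 lower (479 and 170 as reported) and both measures 82 and 18 (266 and 44 as reported). With a minimum FPKM of 10 the higher genes were 265 by FPKM and 140 by both. With 1 divisor for all libraries FPKM gave 307 higher and 283 lower, and both measures 83 lower. Exons with a gap of 10 points were 957 higher and 493 lower (372 and 106 as reported), and with 30 points 187 and 27. Lower exons numbered 64 with 50 junction reads and 168 with 10. With inclusion junctions within 3-fold of each other, which leaves out most short exons, 215 were higher. A middle band of 20% to 80% held 44.0% of exons and 73.5% of genes (37.2% and 63.5% as reported).

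Normalising inclusion to exon length, chosen after seeing the data, gave 374 higher and 108 lower exons and 37.8% in the middle, and scaling the lists to total reads, also chosen then, left 17 of 27 list medians above that of all genes. No paired analysis was possible because each group had 1 library. Depth limits single exons: at 20 junction reads a 20-point gap is within the counting intervals, and 44 of the higher and 32 of the lower exons had overlapping ones. Whether the libraries were prepared together is not given in the sources used here. With no replicate, differences in culture, transfection or library preparation cannot be told apart from the knockdowns.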
